A study of Homo sapiens with 16 samples.

Results

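HT-1080 is an established human fibrosarcoma cell line that is widely used to study ferroptosis. The comparison described here set the 2 HT-1080 libraries labelled siDCAF8/Erastin (siRNA against DCAF8 and erastin at 10 µM for 24 h) against the 2 libraries labelled siDCAF8 (the same siRNA, no erastin). These are 4 of the 16 RNA-seq libraries of the series. RNA was amplified with the Smart-seq v4 kit before library preparation, per the labels. The other 12 libraries came from siNS cells (taken here as the control siRNA), siDCAF8+siLSH cells (both siRNAs) and oeWDR76 cells, with and without erastin, 2 libraries per group. The libraries compared below beside the 4 are those of siNS and siDCAF8+siLSH, with the same erastin dose and time. All 16 libraries, those of oeWDR76 included, entered the filter on low genes and the shared estimate of the spread. The labels do not say which siRNA sequences were used, whether the replicates were separate cultures, or what vehicle the untreated cells received, so p-values measure only the spread between these libraries, which may be technical.

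Values were FPKM (fragments scaled for transcript length and for the fragments mapped in the library), as deposited by the authors. Of 17552 genes with values, 11260 averaged 1 FPKM or more across the 16 libraries and were tested, 6292 were below that level, and 1303 were listed at 0 in all 4 libraries. The 2 replicates of a group correlated at 0.996 over the genes tested, in siDCAF8 and in siDCAF8/Erastin, and the median SD between replicates was 0.06 on the log2(FPKM + 1) scale in both. All 14 mesenchymal markers had values, 2 of them under 1 FPKM in all 4 libraries. Their summed level was 4960 and 4698 FPKM in the untreated libraries and 3711 and 3993 FPKM with erastin. Values were present for 6 of 8 epithelial, 6 of 6 endothelial and 5 of 6 neural markers. Each of these lists summed to at most 6.18 FPKM in any of the 4 libraries. The 8 haematopoietic markers summed to between 76.3 and 88.5 FPKM, with 5 of the 8 under 1 FPKM in all 4 libraries. The mesenchymal sum was lower in both erastin libraries, several of its genes are matrix genes described below, and its part in them was not tested.

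Erastin blocks system xc-, the cystine-glutamate antiporter made of SLC7A11 and SLC3A2, and so starves cells of cystine, the source of cysteine for glutathione. Without glutathione the peroxidase GPX4 cannot clear lipid peroxides, and cells can die by ferroptosis. Amino acid shortage is read by the kinase GCN2, which raises translation of the transcription factor ATF4, while oxidants and electrophiles release the transcription factor NRF2 from KEAP1. DCAF8 is a substrate receptor of the CRL4 ubiquitin ligase, WDR76 is a related WD40 protein, and LSH, encoded by HELLS, is a chromatin remodeler needed for DNA methylation.

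The targeted gene was low in all 4 libraries. DCAF8 stood at 11.8 and 12.2 FPKM in the untreated siDCAF8 libraries and at 10.8 and 10.3 FPKM with erastin, against 38.9 and 40.4 FPKM and 36.7 and 36.7 FPKM in the siNS libraries without and with erastin. The siDCAF8 and siNS libraries did not overlap, and the erastin difference of DCAF8 within siDCAF8 did not pass the test (log2 difference -0.17, SE 0.08, adjusted p = 0.099). WDR76 fell from 5.00 and 5.31 to 3.63 and 3.57 FPKM (log2 difference -0.42, adjusted p = 0.0058) and HELLS from 6.83 and 7.45 to 5.85 and 5.89 FPKM (log2 difference -0.24, adjusted p = 0.012). The HELLS call was lost without siDCAF8 replicate 2 (adjusted p = 0.10) or replicate 1 of siDCAF8/Erastin (adjusted p = 0.054).

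Many genes moved, most of them by little. With limma on log2(FPKM + 1) and a Benjamini-Hochberg adjusted p under 0.05, 4600 of the 11260 genes tested were called (40.9%), 2065 higher (18.3%) and 2535 lower (22.5%) with erastin. The list counts below stand beside these shares of 18.3% higher and 22.5% lower, and counts near them do not set a list apart. The median absolute log2 difference of the called genes was 0.31. Without siDCAF8 replicate 1 the count was 3021, with 1197 higher and 1824 lower. At a 2-fold limit 15 called genes were higher (0.133%) and 14 lower (0.124%), against 99 and 228 at a 1.5-fold limit. For 4589 of the 4600 called genes the 2 groups of libraries did not overlap. Over all genes tested the groups did not overlap for 32.0% in the higher direction and 37.5% in the lower. In bulk RNA, fewer cells in a state and less RNA per cell of that state cannot be told apart, for any gene below. Fold changes are on the log2(FPKM + 1) scale, which understates the change of genes near 1 FPKM.

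The response also ran with base composition. Genes called higher had a median transcript GC content of 42.0% and genes called lower 56.6%, against 49.2% over all genes tested. GC content and transcript length accounted for 22.0% of the variance of the response across genes in siDCAF8, against 3.48% in siNS. After removal of that trend within each library, erastin raised 1969 genes and lowered 1947 past the test, and 2850 of the 4600 calls were kept in the same direction. Where the correction ended the call of a gene named below, its value is given beside it.

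**Figure D1:**
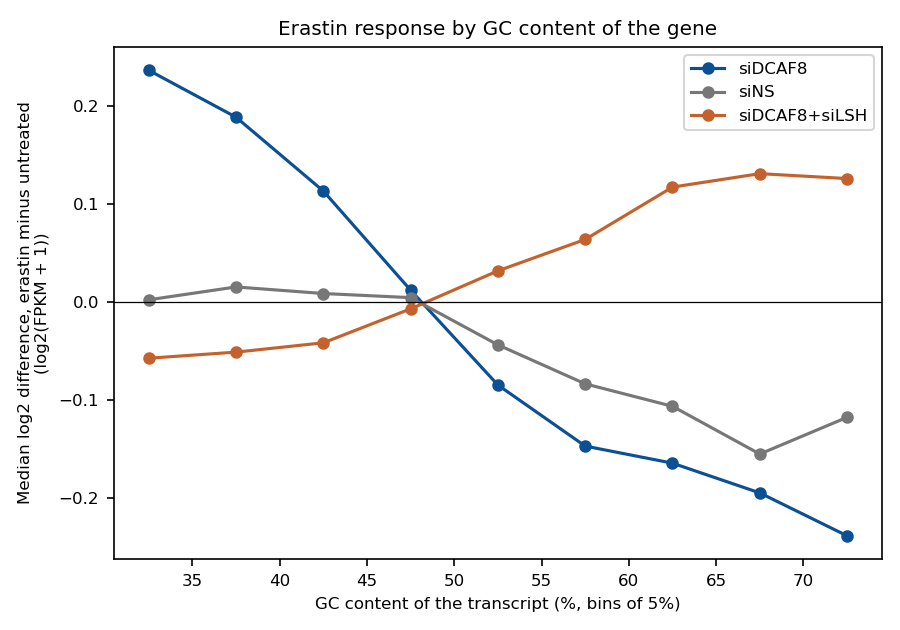
Median log2 difference between erastin and untreated libraries (vertical axis) for genes in bins of 5% transcript GC content (horizontal axis), in siDCAF8, siNS and siDCAF8+siLSH cells. The siDCAF8 medians run from 0.24 in the bin of 30 to 35% down to -0.24 in the bin of 70 to 75%, while those of siDCAF8+siLSH run from -0.06 up to 0.13.

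Amino acid supply genes answered erastin in siDCAF8 cells. ASNS, the asparagine synthetase, had 30.4 and 26.6 FPKM in the untreated libraries and 78.2 and 54.6 FPKM with erastin. Its log2 difference was 1.18 (SE 0.13, adjusted p = 5.5e-06), a 2.26-fold rise. Both erastin libraries lay above both untreated ones, and replicate 1 with erastin was the highest. CTH, the lyase that makes cysteine from cystathionine, went from 10.3 and 8.15 to 21.4 and 16.6 FPKM (log2 difference 0.97, SE 0.11, adjusted p = 5.0e-06), and CBS, which makes cystathionine, from 12.5 and 11.2 to 24.8 and 18.8 FPKM (log2 difference 0.82, adjusted p = 2.1e-05). PHGDH, the first enzyme of serine synthesis, rose from 50.97 and 45.1 to 83.3 and 70.03 FPKM (log2 difference 0.66, adjusted p = 8.6e-06). The mitochondrial folate enzymes MTHFD2, ALDH1L2 and MTHFD1L rose by log2 differences of 0.40, 0.38 and 0.22, the last no longer called without siDCAF8 replicate 2 (adjusted p = 0.14) or replicate 1 of siDCAF8/Erastin (adjusted p = 0.055). Other members of that list fell: TYMS, the thymidylate synthase, and SHMT1, a cytosolic serine hydroxymethyltransferase, had log2 differences of -0.52 and -0.48. In all, 6 of the 17 tested genes of serine, asparagine and one-carbon synthesis were called higher and 5 lower, with a median log2 difference of 0.08, against -0.02 over all genes tested.

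ATF4 itself did not pass the test, at 413 and 416 FPKM without and 483 and 440.1 FPKM with erastin (log2 difference 0.15, adjusted p = 0.064), although it did after the GC and length correction (log2 difference 0.27, adjusted p = 0.0034) and without siDCAF8/Erastin replicate 2 (adjusted p = 0.036). It also passed with median-ratio scaling (adjusted p = 0.043) and quantile normalization (adjusted p = 0.0062), as did CARS1, described with the synthetases (adjusted p = 0.048 and 0.02). DDIT3, the stress factor CHOP, rose from 38.6 and 32.8 to 56.3 and 57.4 FPKM (log2 difference 0.66, SE 0.09, adjusted p = 2.5e-05). NUPR1 went from 37.7 and 34.7 to 78.2 and 50.2 FPKM and the secreted stress cytokine GDF15 from 459 and 394 to 729 and 722 FPKM, with log2 differences of 0.78 and 0.77. PPP1R15A, the phosphatase subunit that reverses eIF2α phosphorylation, CEBPG, a dimer partner of ATF4, STC2 and ATF3 were also called higher (log2 differences 0.56, 0.41, 0.50 and 0.44). The ATF3 call was lost without siDCAF8 replicate 2 (adjusted p = 0.053) and without siDCAF8/Erastin replicate 2 (adjusted p = 0.089). Several genes usually counted with them did not move past the test: TRIB3 stood at 41.7 and 33.9 FPKM untreated and 41.8 and 32.96 FPKM with erastin, and CHAC1, which degrades glutathione, at 7.20 and 6.15 and 5.35 and 5.52 FPKM. DDIT4, an inhibitor of mTORC1, fell from 71.4 and 63.8 to 51.8 and 51.9 FPKM (log2 difference -0.37, adjusted p = 0.027), a call that the GC and length correction ended (log2 difference -0.23, adjusted p = 0.20), as did leaving out siDCAF8 replicate 1 (adjusted p = 0.18) or either erastin library (adjusted p = 0.087 and 0.086) or keeping low genes in the fit (adjusted p = 0.11). Of the 24 tested ATF4 regulators and effectors, 9 were called higher and 3 lower (median log2 difference 0.12), and 12 and 0 after the correction (median 0.21). Leaving out 1 of the 4 libraries gave 7 to 10 higher and 0 to 3 lower.

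The aminoacyl-tRNA synthetases, which charge tRNAs with their amino acids, were higher as a group in count: 12 of 20 were called higher and 2 lower, with a median log2 difference of 0.28 (11 to 13 higher and 0 to 2 lower with 1 library left out). EPRS1 rose from 74.2 and 78.5 to 122 and 104 FPKM, SARS1 from 121 and 119 to 176 and 159 FPKM and GARS1 from 220.1 and 189 to 306 and 251 FPKM (log2 differences 0.56, 0.48 and 0.44). AARS1, TARS1 and NARS1 had smaller rises of 0.33, 0.37 and 0.35. CARS1, which charges cysteine, did not pass the test (log2 difference 0.13, adjusted p = 0.076), but did after the correction (adjusted p = 0.0038) and without siDCAF8/Erastin replicate 2 (adjusted p = 0.027). Transporters gave few calls: of 12 amino acid transporters tested, 1 was called higher and 0 lower, with a median of -0.01, and 1 to 3 higher and 0 to 2 lower with 1 library left out. That 1 was SLC3A2, the heavy chain of system xc- and of other transporters, at 73.7 and 67.9 FPKM untreated and 92.3 and 92.1 FPKM with erastin (log2 difference 0.38, adjusted p = 0.00011). The leucine transporter SLC7A5 had 119 and 96.99 FPKM without and 119 and 89.8 FPKM with erastin, and the glutamine transporter SLC1A5 143 and 134 and 154 and 135 FPKM, with overlapping groups for both. SLC1A5 passed after the correction (log2 difference 0.21, adjusted p = 0.015), where 3 transporters were called higher and 1 lower, and SLC7A5 was called lower without siDCAF8/Erastin replicate 1 (adjusted p = 0.044).

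The C/EBP-ATF element, a site bound by ATF4 with C/EBP partners, was searched for as the letters TGATGNAA on both strands of the 250 bases before the first listed start of each gene, in the RefSeq promoters of GRCh38.p14. It was present in 3.19% of the 27305 promoters of the table and in 1.38% of those of the genes tested that had an entry. Among genes with an entry it was present in 2 of 20 ATF4 regulators and effectors, 2 of 10 synthesis genes, 2 of 16 synthetases, 0 of 11 transporters and 0 of 15 genes of cysteine supply and glutathione. Among the promoters of all genes called higher it was present in 1.58%, and among those of all genes called lower in 1.23%. Both shares are near the 1.38% of the genes tested, so over all genes the letters hardly set the called genes apart. The windows are those of the 6 genes of these lists that carry it. Of these genes, 5 were called higher, CHAC1 being the exception. Capitals mark the matched letters, and each run reads 5′ to 3′ along the gene.
ASNS, chr7:97872457-97872488, minus strand: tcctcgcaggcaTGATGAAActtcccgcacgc
MTHFD1L, chr6:150866345-150866376, plus strand: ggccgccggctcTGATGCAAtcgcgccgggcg
AARS1, chr16:70289674-70289705, minus strand: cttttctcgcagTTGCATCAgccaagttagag
IARS1, chr9:92293698-92293722, minus strand: attttcagcgcgTTGCATCAcctcc
ATF3, chr1:212565204-212565235, plus strand: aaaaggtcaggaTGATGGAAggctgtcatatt
CHAC1, chr15:40953250-40953281, plus strand: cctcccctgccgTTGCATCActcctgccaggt
A match describes the letters only. The rises beside them were 1.18 for ASNS, 0.22 for MTHFD1L, 0.33 for AARS1, 0.32 for IARS1 and 0.44 for ATF3 on the log2 scale.

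The target of erastin was among the genes that rose. SLC7A11, the light chain of system xc-, went from 6.78 and 5.22 to 15.4 and 9.32 FPKM (log2 difference 0.90, SE 0.16, adjusted p = 0.00036). Both erastin libraries were above both untreated ones, and they differed from each other by more than the untreated libraries did. GCLM and GCLC, the subunits of the enzyme that limits glutathione synthesis, rose by 0.82 and 0.24 on the log2 scale, GCLM from 16.4 and 16.97 to 33.6 and 27.3 FPKM. The pentose phosphate enzyme TKT, a transketolase, rose by 0.27, while glutathione reductase GSR did not pass the test (19.5 and 18.9 FPKM untreated, 18.4 and 18.6 FPKM with erastin). Of 21 cysteine and glutathione genes tested, 8 were called higher and 0 lower, with a median of 0.03.

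NRF2 pathway genes rose in part, and HMOX1 had the largest log2 difference among the called genes. HMOX1, the heme oxygenase, had 10.4 and 10.1 FPKM untreated and 59.95 and 27.8 FPKM with erastin. The log2 difference was 1.90 with an SE of 0.30 (adjusted p = 0.00013), and both erastin libraries lay above both untreated ones, replicate 1 far above replicate 2. TXNRD1, thioredoxin reductase, rose from 83.3 and 87.04 to 198 and 169 FPKM (log2 difference 1.09, SE 0.09, adjusted p = 4.0e-07), and the ferritin heavy chain FTH1 from 506 and 468 to 1093 and 819 FPKM (log2 difference 0.96, adjusted p = 1.9e-06). SQSTM1, the autophagy receptor that also binds KEAP1, went from 170.0 and 172 to 310.2 and 254 FPKM (log2 difference 0.71). PIR, ME1, OSGIN1 and NQO1 rose by 0.69, 0.67, 0.64 and 0.54, whereas NFE2L2, which encodes NRF2, and SRXN1 did not pass the test (log2 differences 0.12 and 0.15), SRXN1 passing it after the correction (adjusted p = 0.027). Of 34 pathway genes tested, 16 were called higher and 3 lower (median 0.16), and 19 and 3 after the GC and length correction. The letters TGANNNNGC, the core of the antioxidant element, were in 11 of 25 of their promoters and in 35.9% of those of all genes tested, searched as above.

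Iron genes rose in part. FTL, the ferritin light chain, rose by 0.25 on the log2 scale, a call lost under quantile normalization (log2 difference 0.092, adjusted p = 0.26). FBXL5, the iron-sensing ligase subunit, rose by 0.43 and SLC11A2 by 0.26. The transferrin receptor TFRC had 289 and 328 FPKM untreated and 349 and 359 FPKM with erastin and did not pass the test (adjusted p = 0.16), but did with only the groups compared (adjusted p = 0.041) and under quantile normalization (adjusted p = 0.036). The ferrireductase STEAP3 fell by 0.36 on the log2 scale. Of 23 iron genes tested, 8 were called higher and 1 lower. GPX4 did not pass the test (144 and 140.5 FPKM untreated, 155 and 148 FPKM with erastin, log2 difference 0.09, adjusted p = 0.19) but did after the correction (log2 difference 0.27, adjusted p = 0.00011) and under quantile normalization (adjusted p = 0.014). AIFM2, the quinone reductase FSP1, rose by 0.34, and MBOAT2, a phospholipid acyltransferase, by 0.54. The desaturase FADS2 fell from 77.01 and 77.7 to 41.2 and 45.3 FPKM (log2 difference -0.83, adjusted p = 7.1e-07). Of 21 ferroptosis suppressors tested, 4 were called higher and 4 lower, near the shares of all genes tested (18.3% and 22.5%). Among 16 lipid drivers of ferroptosis, 4 were called higher and 3 lower: SAT1, a polyamine acetyltransferase, rose from 62.1 and 63.4 to 85.7 and 115 FPKM (log2 difference 0.65), ACSL4, which activates polyunsaturated fatty acids, by 0.23, and LPCAT3, which places them in phospholipids, fell by 0.28. After the correction ACSL4 had a difference of 0.05 (adjusted p = 0.39) and LPCAT3 one of -0.19 (adjusted p = 0.063), and both calls were also lost without siDCAF8/Erastin replicate 2 (adjusted p = 0.059 and 0.0504). LPCAT3 lost it as well without siDCAF8 replicate 1 (adjusted p = 0.085) and without siDCAF8/Erastin replicate 1 (adjusted p = 0.061). With 1 library left out, 2 to 6 drivers were called higher and 1 to 3 lower, and 2 to 3 suppressors lower.

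**Figure D2:**
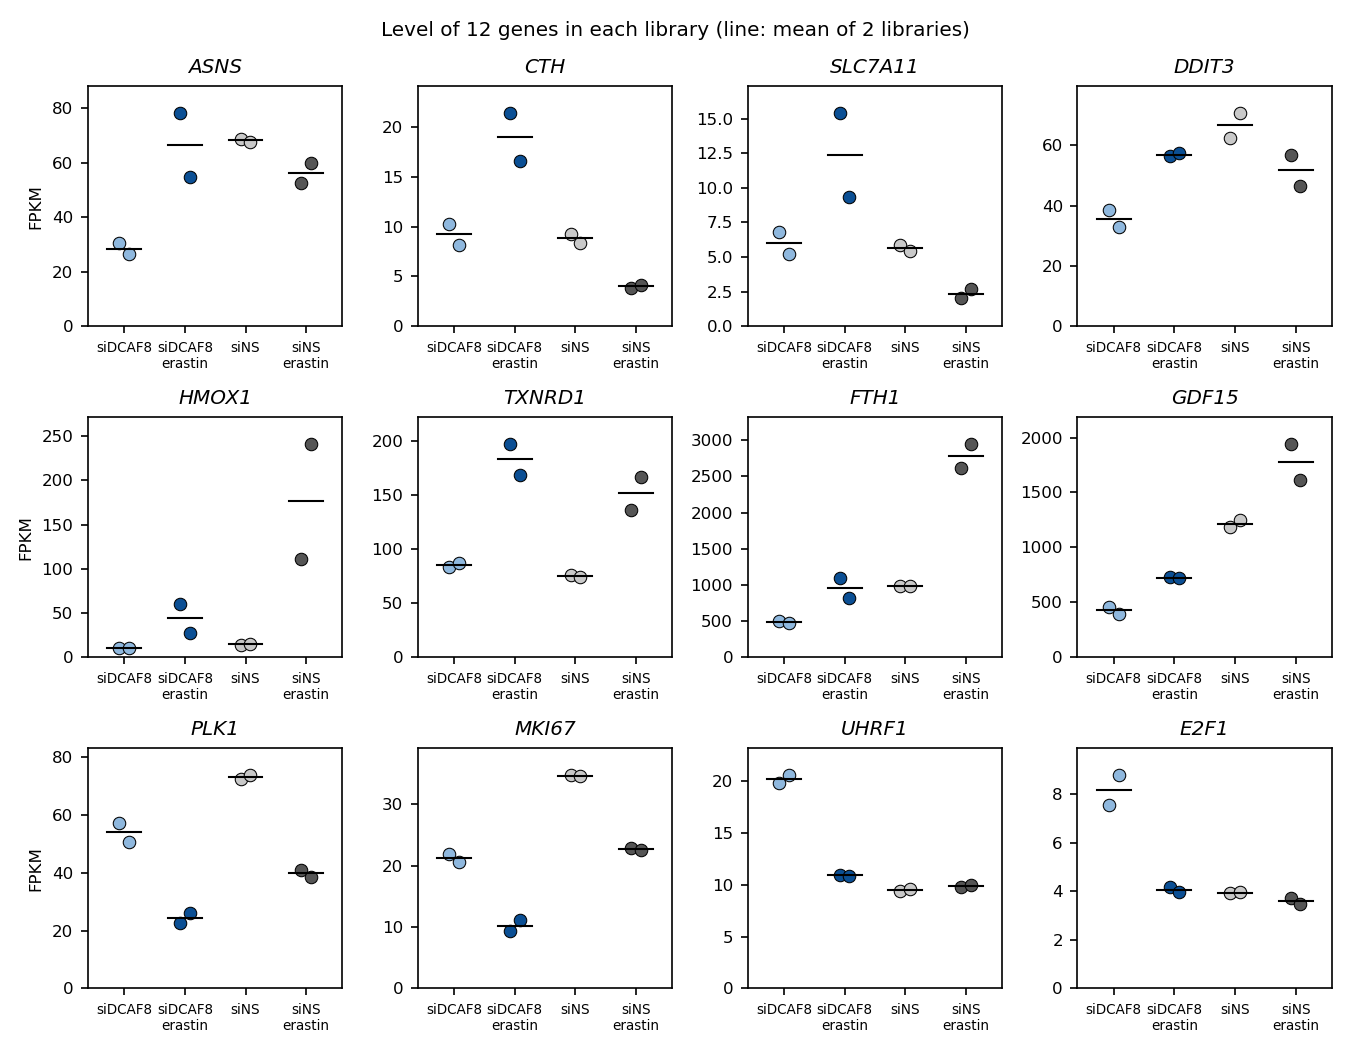
FPKM of 12 genes (vertical axes, starting at 0) in each library of siDCAF8 and siNS cells without and with erastin, with a line at the mean of the 2 libraries. In siDCAF8, ASNS, CTH, SLC7A11, DDIT3, HMOX1, TXNRD1, FTH1 and GDF15 are higher with erastin in both libraries, and PLK1, MKI67, UHRF1 and E2F1 are lower in both.

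Cell cycle genes fell together. Of 44 tested genes for S phase entry and DNA replication (the G1/S list), 39 were called lower and 0 higher, with a median log2 difference of -0.45, and 40 and 0 after the GC and length correction. Of 39 mitotic genes, 34 were called lower and 0 higher, with a median of -0.52, and 39 and 0 after the correction. The share of all genes tested that was called lower was 22.5%. UHRF1, which recruits DNMT1 to hemimethylated DNA, went from 19.8 and 20.6 to 10.9 and 10.9 FPKM (log2 difference -0.84, SE 0.06, adjusted p = 1.4e-07). RRM2, the ribonucleotide reductase subunit, went from 44.3 and 45.4 to 22.3 and 24.9 FPKM, thymidine kinase TK1 from 30.1 and 30.7 to 16.2 and 15.6 FPKM and the transcription factor E2F1 from 7.55 and 8.79 to 4.18 and 3.95 FPKM (log2 differences -0.90, -0.89 and -0.85). The helicase subunit MCM2, the loading factor CDC6 and the clamp PCNA fell too (log2 differences -0.58, -0.64 and -0.35). CCNE2 was called lower although its groups overlapped (2.98 and 4.94 FPKM untreated, 3.16 and 2.16 FPKM with erastin), and lost the call without siDCAF8 replicate 2 (adjusted p = 0.49) or replicate 2 of siDCAF8/Erastin (adjusted p = 0.33), with no filter on low values (0.11), with only the groups compared (0.078) and under quantile normalization (0.058). DNMT1 fell by 0.54 and CDKN2C, a CDK4 and CDK6 inhibitor, from 8.12 and 8.11 to 2.50 and 3.30 FPKM (log2 difference -1.23).

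Among mitotic genes the polo kinase PLK1 had 57.4 and 50.7 FPKM untreated and 22.7 and 26.3 FPKM with erastin (log2 difference -1.11, SE 0.09, adjusted p = 1.6e-07). The proliferation marker MKI67 fell from 21.98 and 20.5 to 9.32 and 11.1 FPKM (log2 difference -0.99, adjusted p = 1.8e-07), and the checkpoint target CDC20 from 68.2 and 64.8 to 31.2 and 37.4 FPKM (log2 difference -0.94). BIRC5, FOXM1, KIF20A and CENPA fell (log2 differences -0.95, -0.94, -0.92 and -0.81), and the transcription factor MYBL2 from 9.52 and 9.63 to 4.42 and 3.45 FPKM. CCNB1 and TOP2A fell as well (log2 differences -0.52 and -0.32), and CDK1 did not pass the test (27.2 and 32.4 FPKM untreated, 23.1 and 28.02 FPKM with erastin, adjusted p = 0.072). It did pass after the correction (adjusted p = 0.00092), without siDCAF8 replicate 1 (adjusted p = 0.026) and without siDCAF8/Erastin replicate 2 (adjusted p = 0.016). H2AX, the variant histone marked at DNA breaks, went from 40.2 and 40.8 to 18.8 and 16.9 FPKM (log2 difference -1.14). Of 10 replication-dependent histone genes tested, 1 was called lower and 0 higher.

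Within these groups the 2 erastin replicates also differed from each other in a common order. All 34 mitotic genes called lower were lower in erastin replicate 1 than in replicate 2, and 25 of the 39 called G1/S genes were higher in replicate 1. Of the genes called higher, 6 of 6 synthesis genes, 11 of 12 synthetases and 12 of 16 NRF2 pathway genes were higher in erastin replicate 1. Over all genes called, erastin replicate 1 was above replicate 2 for 49.1% of those called higher and 50.9% of those called lower. Among the same genes called higher, untreated replicate 1 was above untreated replicate 2 for 6 of 6 synthesis, 11 of 16 NRF2 pathway and 4 of 12 synthetase genes. It was above for 8 of 34 mitotic and 6 of 39 G1/S genes called lower. Over all genes called, these untreated shares were 27.7% of those called higher and 56.4% of those called lower. Genes of a list are not independent, and the 2 libraries of each group are the whole group.

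E2F letters (TTTGGCG or TTCCCGC, both strands, same windows) were in 22 of 38 promoters of the G1/S list, against 11.5% of the promoters of all genes tested and 7.02% of the table. The cell cycle homology region, a site of the DREAM and MMB complexes written here as TTTGAA, was in 18 of 33 promoters of the mitosis list, against 8.13% and 13.6%. The windows below belong to genes that fell and are shown for the place of these letters near the start.
E2F1, chr20:33686387-33686417, minus strand: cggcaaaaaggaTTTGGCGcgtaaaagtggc
CDC6, chr17:40287839-40287869, plus strand: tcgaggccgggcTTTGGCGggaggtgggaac
E2F2, chr1:23531257-23531287, minus strand: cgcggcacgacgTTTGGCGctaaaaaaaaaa
PLK1, chr16:23678848-23678877, plus strand: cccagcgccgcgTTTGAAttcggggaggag
BUB1B, chr15:40161034-40161063, plus strand: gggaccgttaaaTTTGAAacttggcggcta
CDC20, chr1:43358904-43358933, plus strand: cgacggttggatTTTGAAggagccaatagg
The matched letters shown began 20 bases before the start in E2F1, 28 in CDC6, 42 in E2F2, 29 in PLK1, 23 in BUB1B and 65 in CDC20. A further match in CDC20 began at 178, and other genes of the lists had matches farther off, such as RRM1 at 223 and TOP2A at 194. Among the promoters of all genes called lower, the E2F letters were in 12.5% and TTTGAA in 7.64%.

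Glycolysis genes fell, and hypoxia genes split. Of 24 glycolysis genes tested, 15 were called lower and 0 higher (median -0.28), and 14 lower and 3 higher after the GC and length correction (median -0.15). PGAM1, the phosphoglycerate mutase, went from 243 and 259 to 153 and 148 FPKM (log2 difference -0.73, SE 0.05, adjusted p = 9.1e-08) and lactate dehydrogenase LDHA from 364 and 408 to 249 and 245 FPKM (log2 difference -0.64). TPI1, PKM, ALDOA and ENO1 fell (log2 differences -0.58, -0.53, -0.41 and -0.30). Among 26 hypoxia targets, 6 were called higher and 8 lower, with a median of 0.005 (5 to 7 lower with 1 library left out). CA9, a carbonic anhydrase, had 1.95 and 1.88 FPKM untreated and 0.15 and 0.23 FPKM with erastin (log2 difference -1.29, adjusted p = 1.9e-06). STC1, a secreted glycoprotein, went from 88.1 and 84.7 to 33.2 and 37.2 FPKM (log2 difference -1.27, adjusted p = 4.6e-09) while HIF1A rose from 43.9 and 44.5 to 58.9 and 64.6 FPKM (log2 difference 0.47). The letters ACGTG were in 11 of 21 hypoxia promoters and 8 of 22 glycolysis promoters, against 23.9% of those of all genes tested.

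Cholesterol and chaperone genes gave few or mixed calls. Of 30 genes of cholesterol synthesis and SREBP control, 2 were called higher and 12 lower (median -0.11). LSS, the lanosterol synthase, went from 26.8 and 25.9 to 15.5 and 19.6 FPKM (log2 difference -0.57, adjusted p = 0.00012), and FASN, the fatty acid synthase, fell (log2 difference -0.52). Without siDCAF8/Erastin replicate 1 the list had 8 genes called higher and 7 lower, so the direction of its count rests on that library. Of 21 heat shock genes and chaperones, 4 were called higher and 4 lower. DNAJB1 stood at 33.5 and 33.4 FPKM untreated and 32.8 and 34.03 FPKM with erastin and HSPH1 at 29.1 and 33.1 and 32.6 and 32.8 FPKM, neither past the test. BAG3 fell by 0.23, a call lost after the correction (log2 difference -0.10, adjusted p = 0.15), and HSPB8 rose by 0.30.

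In the unfolded protein response of the endoplasmic reticulum, 12 of 26 genes tested were called lower and 4 higher, with a median of -0.15 (9 to 10 and 1 to 4 with 1 library left out). CRELD2 went from 14.8 and 15.4 to 7.34 and 7.12 FPKM (log2 difference -0.97, SE 0.09, adjusted p = 8.9e-07), SDF2L1 from 18.9 and 18.8 to 9.62 and 10.7 FPKM and the chaperone calreticulin, CALR, from 645 and 618 to 403 and 416 FPKM (log2 differences -0.83 and -0.62). MANF and PDIA4 fell (log2 differences -0.53 and -0.53). HSPA5, the chaperone BiP, did not pass the test (214 and 207 FPKM untreated, 195 and 181 FPKM with erastin, adjusted p = 0.16). XBP1, a transcription factor of this response, went the other way, from 72.2 and 65.3 to 109.8 and 96.8 FPKM (log2 difference 0.58, adjusted p = 1.2e-05).

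Targets of the Hippo pathway factors YAP and TAZ rose in part. ANKRD1 went from 329.8 and 318 to 875 and 905 FPKM (log2 difference 1.46, SE 0.08, adjusted p = 7.8e-09). CCN1 and AMOTL2, both regulated through cell shape and density, rose by 0.64 and 0.51, and the receptor kinase AXL by 0.31. Of 24 targets tested, 10 were called higher and 2 lower (median 0.09), and 6 were called higher without siDCAF8/Erastin replicate 2. All 10 were lower in erastin replicate 1 than in replicate 2, and all 10 were higher in untreated replicate 1 than in untreated replicate 2. The letters GGAATG, bound by the TEAD partners of YAP, were in 7 of 16 of their promoters and in 9.37% of those of all genes tested.

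PLAT, an activator of plasminogen, rose from 49.8 and 47.1 to 71.1 and 82.5 FPKM (log2 difference 0.65, SE 0.10, adjusted p = 7.3e-05). The activator PLAU and the metalloproteinases MMP2 and MMP14 fell (log2 differences -0.41, -0.66 and -0.58). Of 30 collagens and matrix glycoproteins, 17 were called lower and 3 higher (median -0.22). Fibronectin, FN1, went from 593 and 506 to 376 and 418 FPKM and laminin LAMB1 from 15.8 and 15.6 to 9.20 and 9.07 FPKM (log2 differences -0.47 and -0.72). Among TGF-beta and activin genes, 4 of 24 were called higher and 6 lower, near the shares of all genes tested (18.3% and 22.5%). After the GC and length correction 3 were called higher and 9 lower. NOG, a BMP antagonist, fell from 11.2 and 12.1 to 4.51 and 5.04 FPKM (log2 difference -1.13). TGFBR3 and TGFBR2 also fell (log2 differences -0.71 and -0.53), and LTBP3, a latent TGF-beta binding protein, rose by 0.75.

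RAS-MAPK feedback genes split. Of 21 tested MAPK output and immediate early genes, 4 were called higher and 11 lower, but 7 higher and 6 lower after the GC and length correction and 5 to 9 lower with 1 library left out. The phosphatase DUSP5 rose from 52.6 and 45.8 to 76.4 and 78.3 FPKM and DUSP4 fell from 42.6 and 40.5 to 29.5 and 31.2 FPKM (log2 differences 0.65 and -0.44). Of 26 p53 targets, 6 were called higher and 7 lower, and 10 and 4 after the correction. The uncorrected counts were near the shares of all genes tested (18.3% and 22.5%). MDM2, RRM2B and POLK rose by 0.38, 0.54 and 0.57, FDXR and TNFRSF10B fell (log2 differences -0.45 and -0.34), and CDKN1A, the CDK inhibitor p21, did not pass the test (214 and 216 FPKM untreated, 226 and 234 FPKM with erastin) but did after the correction (log2 difference 0.24, adjusted p = 0.0051).

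Inflammatory genes moved in both directions. Of 39 interferon-stimulated genes, 3 were called higher and 14 lower, with a median of -0.01, and 3 and 9 after the correction (8 to 12 lower with 1 library left out). IFITM3, a membrane protein that blocks virus entry, went from 324 and 311 to 217 and 228 FPKM (log2 difference -0.51) and IFI6 fell by 0.45. Of 19 chemokines, cytokines and NF-kB feedback genes, 4 were called higher and 3 lower, and 6 and 4 after the correction. The cytokine LIF rose by 0.40 and IL6 fell from 2.74 and 2.86 to 1.53 and 1.73 FPKM. In prostaglandin synthesis 2 of 8 were called higher and 2 lower. PTGES, the inducible prostaglandin E synthase, had 0.75 and 1.26 FPKM untreated and 6.36 and 4.84 FPKM with erastin (log2 difference 1.72, SE 0.16, adjusted p = 1.3e-06). PTGS2, the cyclooxygenase often used as a ferroptosis marker, was below the filter, with at most 0.03 FPKM in any of the 4 libraries.

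Housekeeping groups moved by small amounts, and the counts of most of them changed with the GC and length correction and with single libraries. Of 47 nuclear respiratory chain subunits, 21 were called lower and 2 higher (median -0.13), and 20 and 2 after the correction (median -0.11). With 1 library left out, 16 to 23 of them were called lower and 1 to 2 higher. UQCR11, CYC1 and COX4I1 fell (log2 differences -0.47, -0.42 and -0.25). Of 54 cytosolic ribosomal proteins, 12 were called higher and 0 lower, and 32 and 0 after the correction, against 5 to 13 higher and 0 to 3 lower with 1 library left out. In ribosome biogenesis, 13 of 39 were called higher and 3 lower, with GNL3, DDX21 and NPM1 higher by 0.42, 0.42 and 0.31. Mitochondrial ribosomal proteins had 8 higher and 14 lower of 47 (3 to 7 and 7 to 11 with 1 library left out), and 6 and 8 after the correction. Proteasome subunits had 7 and 9 of 34 (1 to 10 and 5 to 7 with 1 library left out), and 6 and 3 after the correction. In autophagy and lysosome genes 10 of 38 were called higher and 9 lower: GABARAPL1 rose by 0.64 and CTSL by 0.34, and CTSZ fell by 0.57. Of 34 genes of the CRL4 ligase and of DNA methylation, 5 were called higher and 7 lower. For the autophagy and CRL4 lists these uncorrected counts were near the shares of all genes tested (18.3% and 22.5%). After the correction the autophagy list had 15 higher and 7 lower, and the CRL4 list 3 and 7. Over all genes, 1969 of 11235 were then called higher and 1947 lower. CUL4B rose by 0.30 and DDB2 fell by 0.34, while DDB1, the adaptor that holds DCAF8, did not pass the test (log2 difference -0.14, adjusted p = 0.055, but 0.031 without siDCAF8 replicate 2 and 0.0498 with a replicate block).

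Some of the largest differences lay outside the lists. SNAI2, an epithelial-mesenchymal transition factor, rose from 15.7 and 15.4 to 33.7 and 36.3 FPKM (log2 difference 1.12, SE 0.09, adjusted p = 1.6e-07). IGFBP6, an insulin-like growth factor binding protein, rose from 3.40 and 3.89 to 9.35 and 10.4 FPKM (log2 difference 1.23), CYRIA, a regulator of RAC1, from 11.9 and 11.6 to 26.3 and 25.03 FPKM (log2 difference 1.07) and S100P from 1.21 and 0.85 to 5.20 and 3.27 FPKM (log2 difference 1.35). The keratins KRT81 and KRT86, near-identical neighbours whose reads may be split between them, rose by 1.64 and 1.44. Among falls, NRSN1 went from 4.75 and 5.01 to 1.15 and 1.30 FPKM (log2 difference -1.40), the formyl peptide receptor FPR1 from 17.1 and 19.6 to 7.55 and 6.19 FPKM (log2 difference -1.30), EPHB6, a kinase-inactive ephrin receptor, from 11.5 and 11.1 to 3.99 and 4.35 FPKM (log2 difference -1.25) and CTHRC1 from 7.98 and 8.97 to 3.31 and 3.07 FPKM (log2 difference -1.18).

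Whether the erastin response differed between siDCAF8 and control siRNA cells was tested as the difference of the 2 responses, siDCAF8 minus siNS, on the log2(FPKM + 1) scale. In siNS cells 4223 genes were called (37.5%), and 2796 without siNS replicate 2. Of these, 2158 were also called in siDCAF8 cells, which is 46.9% of the siDCAF8 calls and 51.1% of the siNS calls. The log2 differences of these comparisons share no library, but both tests use the same estimate of each gene's spread, taken from all 16 libraries. Directions were the same for 1854 genes, 670 higher and 1184 lower, and opposite for 304. The responses themselves differed for 2341 genes (20.8%), 1233 with the higher value in siDCAF8 (11%) and 1108 with the lower (9.84%). After the GC and length correction these were 1223 and 1364, with 1944 of the 2341 kept in the same direction. The count was 1532 without siDCAF8 replicate 1, 1329 without siNS replicate 1 and 1315 without siNS/Erastin replicate 1.

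Amino acid stress genes differed mostly in the higher direction. Of the 24 ATF4 regulators and effectors, 16 had a higher response in siDCAF8 and 0 a lower one, and of these 16, 11 were called lower and 0 higher by erastin in siNS. The cysteine supply and glutathione list, which holds CTH and SLC7A11, split, with 4 higher and 4 lower responses of 21. CTH fell in siNS from 9.30 and 8.36 to 3.84 and 4.19 FPKM and the responses differed by 1.94 (SE 0.15, adjusted p = 1.2e-06). SLC7A11 fell from 5.86 and 5.43 to 2.02 and 2.69 FPKM (difference 1.90, adjusted p = 5.4e-05), PCK2, the mitochondrial PEP carboxykinase, from 67.4 and 75.2 to 29.5 and 30.6 FPKM against 60.8 and 48.1 to 84.3 and 68.7 FPKM in siDCAF8 (difference 1.70). ASNS was at 68.5 and 67.7 FPKM in siNS without and 52.6 and 59.9 FPKM with erastin (difference 1.45). For part of these genes the untreated levels lay apart: CHAC1 had 33.8 and 37.9 FPKM in untreated siNS and 3.71 and 5.41 FPKM with erastin, where siDCAF8 had 7.20 and 6.15 and 5.35 and 5.52 FPKM (difference 2.49), and DDIT4 went from 207 and 207 to 47.3 and 54.6 FPKM in siNS (difference 1.63). Of the 16 genes, 12 had a lower mean in untreated siDCAF8 than in untreated siNS and 14 a higher mean in siDCAF8 than in siNS under erastin. Synthetases had 12 higher and 1 lower response of 20, with AARS1 1.23 and SARS1 0.97, and transporters 7 and 0 of 12, with SLC3A2 1.24 and SLC7A5 1.20. Of the 12 synthetases, 8 were called lower by erastin in siNS and 9 higher in siDCAF8. All 7 transporters were called lower in siNS, and 1 of them was called higher in siDCAF8.

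Chaperones went the opposite way. Of 21 heat shock genes, 14 had a lower response in siDCAF8 and 0 a higher one. Before erastin, 3 of the 14 had a lower mean in siDCAF8 than in siNS. All 14 were called higher by erastin in siNS, where 19 of the 21 were called higher (median 0.37). HSPH1 rose in siNS from 17.5 and 15.9 to 32.5 and 34.1 FPKM (difference -0.88, adjusted p = 1.1e-05), HSPB8 from 20.7 and 20.5 to 48.8 and 44.2 FPKM (difference -0.83) and DNAJB1 from 25.4 and 25.7 to 37.5 and 35.8 FPKM (difference -0.51). In the endoplasmic reticulum list 13 of 26 were lower and 2 higher, with SDF2L1 -1.52, MANF -1.11 and HSPA5 -0.98 lower and XBP1 0.79 higher, and 11 of the 13 had a lower mean in untreated siDCAF8 than in untreated siNS. HSPA5 rose in siNS from 261 and 254 to 519.6 and 396 FPKM. NRF2 pathway genes had 12 lower and 1 higher of 34: HMOX1 reached 111 and 241 FPKM in siNS from 14.4 and 15.1 FPKM (difference -1.49, SE 0.42, adjusted p = 0.019), a call lost without siDCAF8 replicate 1 (adjusted p = 0.056), siDCAF8/Erastin replicate 2 (0.091), siNS replicate 1 (0.064) or siNS/Erastin replicate 2 (0.084), and SQSTM1 rose to 484 and 479 FPKM from 192 and 198 FPKM (difference -0.59). TXNRD1 did not differ past the test (difference 0.10, adjusted p = 0.61).

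Many replication genes had a lower response in siDCAF8 than in siNS. Of 44 G1/S genes, 22 had a lower response in siDCAF8 and 0 a higher one, with CDC6 -0.91, UHRF1 -0.89, E2F1 -0.74 and FEN1 -0.70. In siNS 15 of the 44 were called lower and 3 higher. Under erastin, 17 of the 22 genes with a lower response still had a higher mean in siDCAF8 than in siNS. Untreated levels lay apart: UHRF1 was at 9.40 and 9.54 FPKM in siNS without and 9.79 and 10.01 FPKM with erastin, below the 19.8 and 20.6 FPKM of untreated siDCAF8, and 2 of the 22 genes had a lower mean in untreated siDCAF8 than in untreated siNS. Of 39 mitotic genes, 10 had a higher and 1 a lower response, the last being MKI67 (-0.40, adjusted p = 0.018), whose call was lost without replicate 1 of siDCAF8 (adjusted p = 0.071), siDCAF8/Erastin (0.088), siNS (0.052) or siNS/Erastin (0.058), and 38 were called lower in siNS (median -0.64). The share of all genes with a higher response was 11%, and after the GC and length correction the mitotic counts were 6 higher and 1 lower. Of the 10 mitotic genes with a higher response, 9 had a lower mean in untreated siDCAF8 than in untreated siNS. NRSN1 (-1.74), the chemokine CCL3 (-1.62), the kinase PLK2 (-1.33) and the nuclease EXO1 (-1.04) were among the largest lower differences, and SLFN5 (1.44), KRCC1 (1.57) and FUT1 (1.43) among the largest higher ones. CCL3 rose in siNS from 4.02 and 3.14 to 18.4 and 16.7 FPKM and in siDCAF8 from 2.28 and 1.70 to 3.25 and 2.65 FPKM, the latter call being lost without siDCAF8 replicate 2 (adjusted p = 0.29) or replicate 1 of siDCAF8/Erastin (adjusted p = 0.25) and when low genes were kept in the fit (adjusted p = 0.15).

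**Figure D3:**
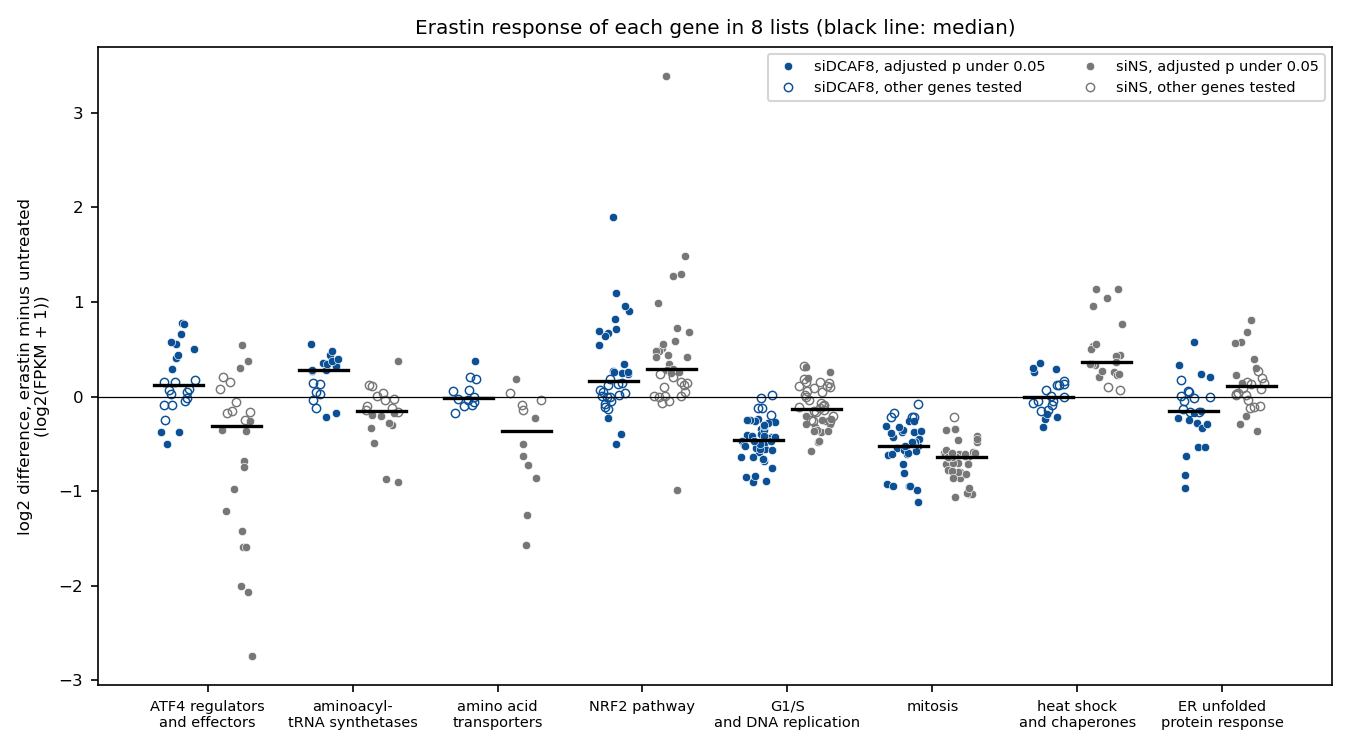
Log2 difference between erastin and untreated libraries (vertical axis) of each tested gene in 8 lists, in siDCAF8 (left of each pair) and siNS (right), with filled points for adjusted p under 0.05 and a black line at the median. Heat shock genes have a median of -0.002 in siDCAF8 and 0.37 in siNS, G1/S genes -0.45 and -0.13, and mitotic genes -0.52 and -0.64.

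**Figure D4:**
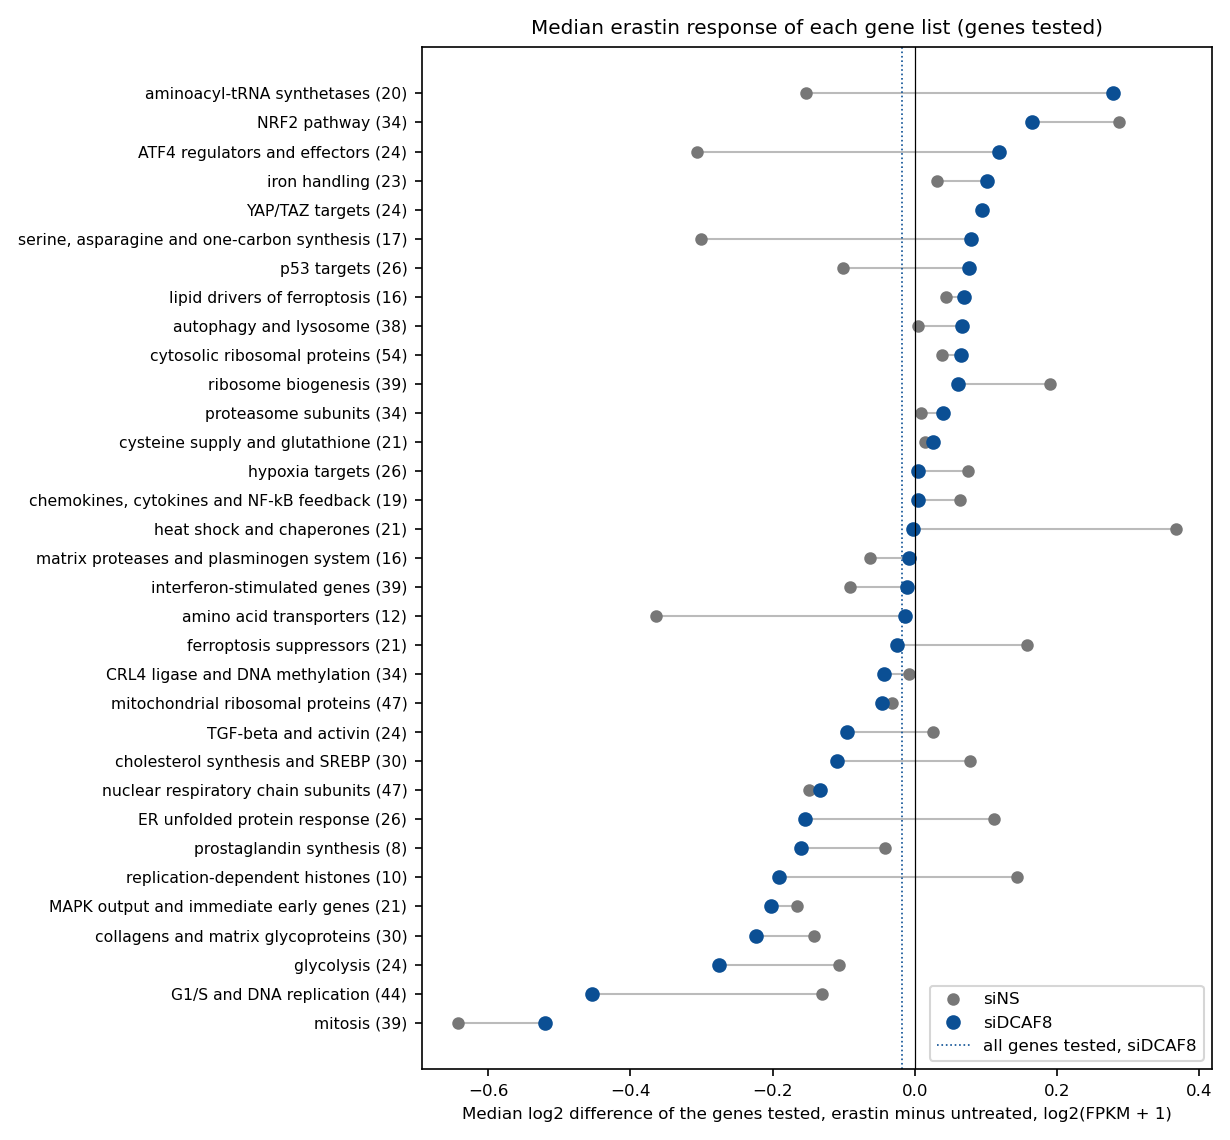
Median log2 difference between erastin and untreated libraries (horizontal axis) over the tested genes of each list (number in brackets), in siDCAF8 and siNS cells. The siDCAF8 medians run from -0.52 for mitosis to 0.28 for aminoacyl-tRNA synthetases, beside -0.02 for all genes tested (dotted line).

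With LSH siRNA added, 2270 genes were called by erastin (20.2%), and the responses of siDCAF8 and siDCAF8+siLSH differed for 2642 genes (23.5%), 1040 higher (9.24%) and 1602 lower (14.2%) in siDCAF8. GC content and length accounted for 51.2% of the variance of that difference across genes, and 250 genes were called after the correction, 194 of them among the 2642 in the same direction. The count was 1008 without siDCAF8 replicate 1, 1624 without siDCAF8/Erastin replicate 2, and in siDCAF8+siLSH 1201 without untreated replicate 2 and 1470 without erastin replicate 1. The erastin response within siDCAF8+siLSH counted 1247 calls without its untreated replicate 2, 1423 without its erastin replicate 1 and 1281 without its erastin replicate 2. Cell cycle genes fell there too: 39 of 44 G1/S genes and 39 of 39 mitotic genes were called lower in siDCAF8+siLSH. Of 24 ATF4 regulators and effectors, 15 were called higher there and 0 lower (median 0.39). NRF2 pathway genes had 21 and 0 of 34 (median 0.44). Synthetases had 7 and 0 of 20 and heat shock genes 4 and 4 of 21, against 10.6% and 9.54% of all genes. The siDCAF8 response was lower than that of siDCAF8+siLSH for 9 ATF4 and 12 NRF2 genes, and higher for 0 and 1. After the correction these were 1 and 5 lower, and 0 and 0 higher. FPR1, which fell in siDCAF8, had a difference of -1.50 between the responses (-1.45 after the correction, adjusted p = 5.4e-05), and NRSN1 one of -2.04 (-2.12, adjusted p = 0.0029). HMOX1 had a difference of -2.45 (-2.22, adjusted p = 0.025). MYBL1 and UAP1 rose in siDCAF8, by 0.32 and 0.57, with differences of 0.85 and 0.83.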

How the data were processed

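RNA-seq of HT-1080 cells was deposited by the authors as 1 table of FPKM values for 16 libraries, 8 groups of 2. StringTie and the genome build GRCh38 are named per the submitters' processing notes. For the aligner, annotation and filters, this was not given in the sources used here. As deposited, the table holds no counts, so the depth of each library and the counting error are unknown, and precision rests on the 2 libraries per group. Of 24107 entries, 6555 were not genes with a coding transcript and were left out; 17506 of the 17552 genes kept matched the RefSeq gene table by gene number. No per-sample column was left unmapped.

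Values were taken as log2(FPKM + 1). Genes averaging 1 FPKM or more across the 16 libraries were fitted together with limma 3.58.1 (R 4.3.3), with 8 group means and a trended prior; contrasts were adjusted by Benjamini-Hochberg over all 11260 genes, and an adjusted p under 0.05 counted as a call. Files and figures were handled with Python 3.11.15, pandas 2.3.3, numpy 2.4.6 and matplotlib 3.10.9. The fit was tested on simulated data before use. The simulation drew independent noise for each gene and library, with no trend in GC content or length. It does not give the rate of false calls in these data. Transcript GC content and length were removed within each library by a smooth fit as an alternative. The results were also computed with a pseudocount of 0.1, without a filter, with a filter of 5 FPKM, median-ratio and quantile scaling, a replicate block or a fit of the groups compared alone, and without each library in turn. Promoter letters were searched in RefSeq promoters of GRCh38.p14, taking the first listed start of each gene.

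The genes described were all genes of the contrast, and the gene lists were chosen with earlier results of these data known. Genes named in the text were the targeted genes, the 15 largest called rises and 15 largest called falls with groups apart, anchor members of each list with up to 6 further called members, and the largest differences between responses (10 and 5 in each direction). Genes with near-identical copies or read-through transcripts could be left out. A few genes under these rules are not reported here.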

Additional observations from a re-analysis of the deposited data

Results flagged for a closer look

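The response to erastin differed between siDCAF8 and siNS cells for 2341 genes and between siDCAF8 and siDCAF8+siLSH cells for 2642 genes, by the limma test of the difference of the 2 responses at an adjusted p under 0.05. The largest differences named in the text, siDCAF8 minus siNS on the log2(FPKM + 1) scale, were 2.49 for CHAC1, 1.94 for CTH, 1.90 for SLC7A11, -1.74 for NRSN1, 1.70 for PCK2 and 1.63 for DDIT4. CHAC1 and DDIT4 also lay apart before erastin, with higher levels in untreated siNS. For siDCAF8 minus siDCAF8+siLSH they were -2.45 for HMOX1 and -2.04 for NRSN1. GC content and length moved with the siDCAF8 minus siDCAF8+siLSH difference, at 51.2% of its variance across genes.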

How the results depend on the processing

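The count of genes called by erastin in siDCAF8, 4600, stayed between 3878 and 4705 under the other scalings, pseudocount, filters and fits and between 3021 and 3978 with 1 library left out. Left-out libraries gave 2796 to 3277 calls in siNS, 1247 to 2098 in siDCAF8+siLSH, 1315 to 2330 for siDCAF8 minus siNS and 1008 to 3003 for siDCAF8 minus siDCAF8+siLSH. The last difference moved most: it had 1755 calls with no filter on low values, where 17552 genes were tested, 1696 with only the groups compared, which leaves fewer libraries to estimate the spread, and 250 once GC content and length were corrected for. Depth is unknown, so no limit on low genes can be given.

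The labels do not say that replicate numbers mark a shared culture or day, and no pairing was taken from them. Deviations of the same number correlated at -0.03 for siDCAF8 with siDCAF8/Erastin and at 0.04 for siDCAF8+siLSH without and with erastin, but at 0.39 for untreated siDCAF8 with untreated siDCAF8+siLSH. With a replicate block 4636 genes were called in siDCAF8, 4286 in siNS, 2295 in siDCAF8+siLSH, 2404 for siDCAF8 minus siNS and 2707 for siDCAF8 minus siDCAF8+siLSH. In siNS the deviations correlated at -0.18, and a block with the numbers of siNS/Erastin exchanged, an alternative chosen after seeing the data, gave 4204 calls.

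No called gene named in the text changed direction under the alternatives run. Among genes that did not pass the test, the sign of the log2 difference turned for some. After the GC and length correction it was 0.094 for DNAJB1, 0.040 for GSR, -0.059 for HSPH1, 0.12 for SLC7A5 and 0.15 for TRIB3. Median-ratio scaling gave 0.019 for DNAJB1 and 0.0050 for TRIB3, and quantile normalization 0.044 and 0.024. With 1 library left out, values ran from -0.029 to 0.025 for DNAJB1, -0.018 to 0.16 for HSPH1, -0.035 to 0.15 for SLC1A5, -0.26 to 0.15 for SLC7A5 and -0.18 to 0.15 for TRIB3, and from -0.039 to 0.24 for the TXNRD1 difference between siDCAF8 and siNS. The cause was not tested.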
